A study of Equus caballus with 4 samples.

Results

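The Notch pathway was followed in differentiating equine satellite cells (ESC) through 10 genes: the receptors *notch1*, *notch2* and *notch3*, the ligands *dll1*, *jag1* and *jag2*, the ligand ubiquitin ligase *mib1*, and the target genes *hes1*, *hey1* and *heyl*. Their probes were chosen as all probes on the array, controls left out, that carry one of these symbols. This gave 12 probes of 7 genes among the 43603 different probes of the array. No probe carried the symbol of *notch1*, *notch3* or *jag2*, but 4 further probes named only by an accession have a description that names *notch1*, *notch3*, *jag2* or *jag1*. These 4 probes were found after the values had been seen and are given separately. Gene symbols are written in capitals in the plots and before sequences.

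ESC are the stem cells of skeletal muscle, here primary cells from the semitendinosus muscle of young stallions on day 3 of differentiation, after one step in which fibroblasts were left to adhere. The HMB-treated group received 50 µM HMB, a leucine metabolite, for 24 h with 3 mM H2O2 in the last 1 h, and the control received the same H2O2 exposure without HMB, so every sample had been exposed to H2O2. HMB-treated RNA in Cy5 and control RNA in Cy3 were hybridized together on each of 4 horse arrays, all on 1 slide and without a dye swap, hence treatment and dye cannot be told apart. The study selected 1 culture for its experiments, and in the labels the control RNA carries a single replicate number throughout, so the p-values measure the spread between these 4 arrays, which may be technical. The number of arrays limits the precision.

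Notch is a signalling system between touching cells. A ligand of the Delta or Jagged type on one cell is marked by the ubiquitin ligase Mindbomb, is taken up, and pulls on the receptor of its neighbour, which is then cut by ADAM proteases and γ-secretase. The freed intracellular part of the receptor joins RBPJ and Mastermind in the nucleus and switches on the HES and HEY repressors. In skeletal muscle this signal is known for keeping satellite cells undifferentiated, while Delta-like 1 is presented by cells that have entered differentiation.

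The probes are 60 bases long. Shown are the probes of the ligand and the target gene that were lower with HMB, and that of a receptor that was measured without such a difference. All are read 5′ to 3′ as the files give them. In the DLL1 probe, capitals mark the 56 bases that all 5 DLL1 probes share. In the NOTCH1 probe, capitals mark a stop codon that closes an otherwise open frame of 20 codons.
DLL1: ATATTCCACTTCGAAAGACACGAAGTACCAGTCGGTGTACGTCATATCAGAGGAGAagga
HES1: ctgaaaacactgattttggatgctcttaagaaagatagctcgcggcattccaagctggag
NOTCH1: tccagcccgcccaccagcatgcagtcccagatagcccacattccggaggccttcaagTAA

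On the EquCab1 build named in the files, the 5 *dll1* probes lie at chr31:504075-504138, each shifted by 1 base from the next, so they are repeated readings of 1 site and not independent evidence. The *hes1* probe is placed at chr19:27046771-27047079, a span of 309 bases of which 249 are not in the probe. The *hey1* probe lies at chr9:7778561-7778620 and the *notch1* probe at chr25:1180714-1180773, the *mib1* probe at chr8:33135561-33135620. The *jag1* probes named by symbol lie at chr22:13191011-13191070 and chr22:13191051-13191110 and share 20 bases. The third *jag1* probe, named by its description, lies 1479 bases further on, at chr22:13192590-13192649. The files give a position in the transcript for each probe but no exon.

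Of the 7 genes with a probe by symbol, *notch2* and *heyl* were not well above background in either channel on any array. The other 5 genes, with 10 probes, were tested with limma together with all 24673 probes that were well above background in the same channel on all 4 arrays. Values are log2 ratios of HMB-treated over control, and a probe was called at an adjusted p of 0.05 or less with a fold change (FC) of 1.3 or more. The median log2 ratio of all tested probes was −0.07, and the log2 ratios of any pair of arrays correlated with r between 0.837 and 0.920 across these probes, which are not independent replicates.

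Among the members, *dll1*, *hes1* and *mib1* were lower with HMB and none was higher, while *jag1* by symbol and *hey1* were not called. Over the brightest tested probe of each of 8804 symbols, 27.6% were called, 10.5% higher and 17.1% lower. Over all tested probes, 28.6% were called, 12.1% higher and 16.4% lower, and of the 10 tested member probes 7 were lower, 5 of them of *dll1*. With 5 genes tested, these counts describe the members only. The median log2 ratio was −0.50 over the 5 tested member genes.

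**Figure D1:**
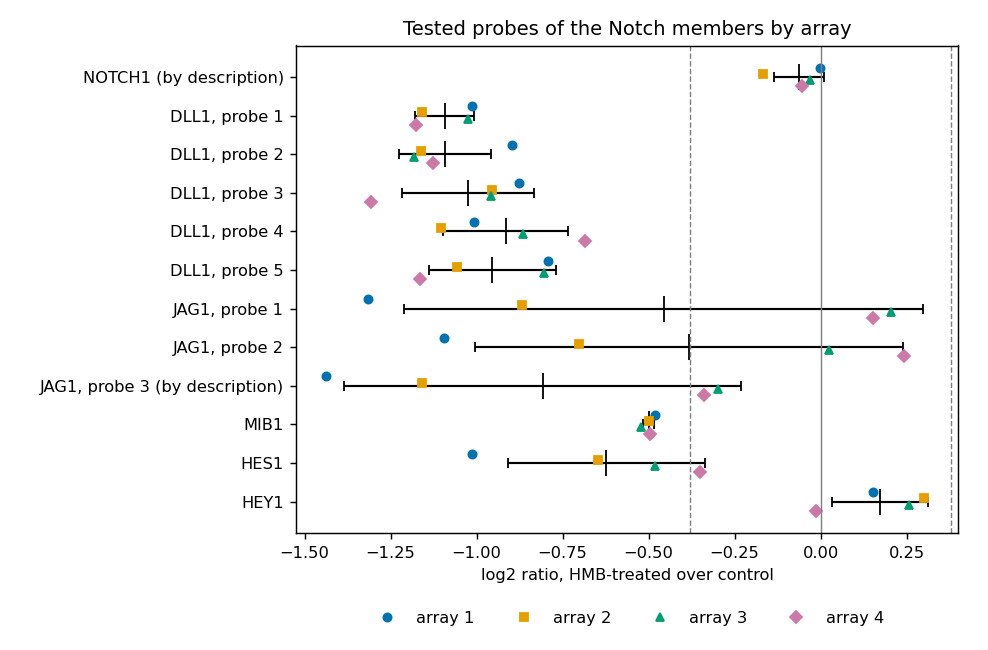
Log2 ratio of HMB-treated over control for each tested member probe on each of the 4 arrays (coloured symbols), with the mean (tick) and SD (bar); dashed lines mark an FC of 1.3 in either direction. All 20 values of the 5 DLL1 probes lie between −1.31 and −0.69, the 4 values of MIB1 fall almost on each other near −0.50, and the JAG1 probes are split between arrays 1 and 2 on the left and arrays 3 and 4 on the right.

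Of the receptors, only *notch1* was measured. Notch1 is one of the receptors that satellite cells carry. The normalized signal of its probe was 227, 257, 261 and 185 in the control channel of arrays 1 to 4 and 227, 229, 256 and 178 in the HMB channel. The channels overlapped almost completely. The log2 ratios were −0.00, −0.17, −0.03 and −0.05, with a mean of −0.06 ± 0.07 (SD, n = 4; limma adjusted p = 0.438). The 95% confidence interval of −0.21 to 0.09 stays inside an FC of 1.3 in either direction.

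The value of *notch1* depends on what the arrays are scaled to. Scaled to the spike-in RNA, the median of all tested probes moved by −0.49 and *notch1* stood at −0.55 (limma adjusted p = 0.000546), that is, close to the bulk of the probes under both scalings. All ratios given here are relative to that bulk.

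The other receptors gave no fold. Notch2 and Notch3 are further receptors of muscle precursors, and Notch3 is also known from the mural cells of vessels. The *notch2* probe (chr5:34077728-34077787) read 4.98 to 6.02 in the control channel and 7.05 to 14.2 in the HMB channel, below the lowest signals that passed as well above background (18.3 to 23.6 in Cy3 and 22.4 to 28.1 in Cy5 over the arrays). The *notch3* probe, named by description and placed on unassigned sequence, read 13.6 to 25.0 and 5.38 to 11.8, and was well above background on 1 array in the control channel and on 0 in the HMB channel. Neither gene was tested, and a signal at background does not show that the RNA is absent.

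Delta-like 1, the Delta ligand most tied to muscle precursors, showed the log2 ratio of largest size among the tested members. The signal of the brightest *dll1* probe was 144, 127, 177 and 157 in the control channel and 71.5, 56.99, 86.8 and 69.5 in the HMB channel. All control values were above all HMB values. The log2 ratios were −1.01, −1.16, −1.02 and −1.18. The mean was −1.09 ± 0.09 (SD, n = 4), 2.13 times lower with HMB (limma adjusted p = 6.76e-05, confidence interval −1.25 to −0.94).

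The other 4 *dll1* probes gave means up to −0.92, and all 5 probes were called, with adjusted p-values from 6.76e-05 to 0.000418. Of all tested probes, 1.74% had a lower log2 ratio than the brightest *dll1* probe. Its value was −0.43 with normexp background correction and loess and −0.61 with loess and no background correction, and the gene was called under all 20 alternatives.

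**Figure D2:**
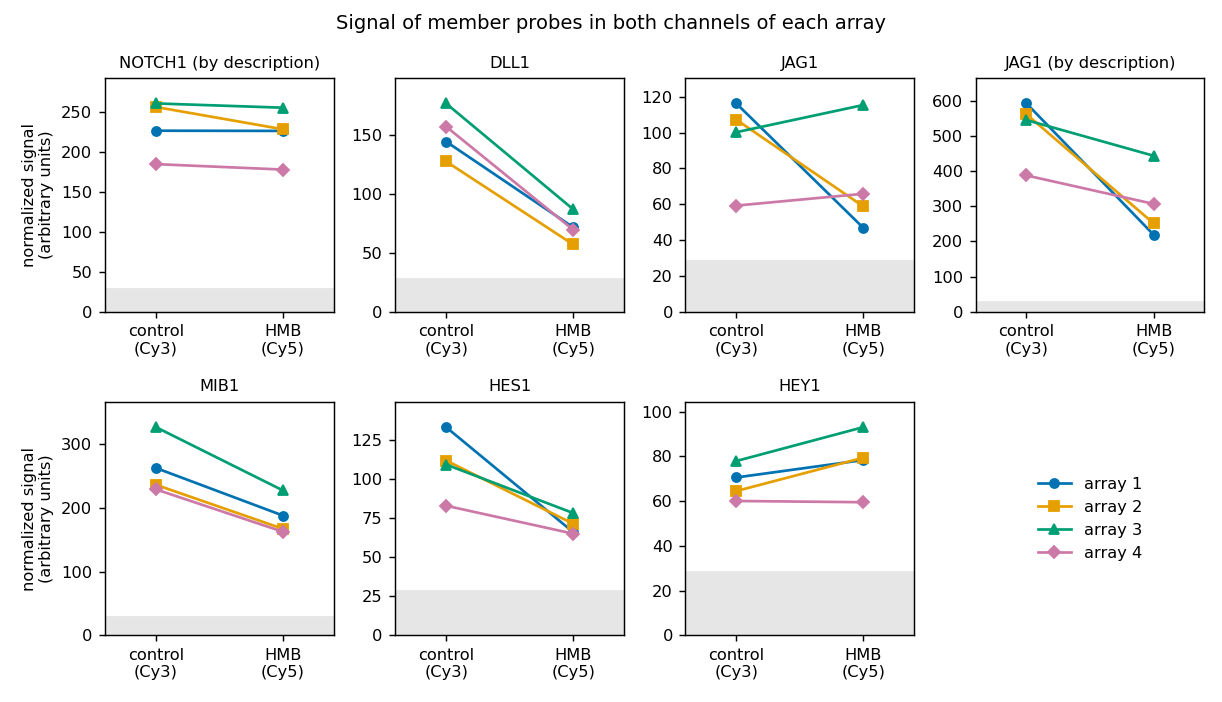
Normalized signal (arbitrary units) of one probe per panel in the control (Cy3) and HMB (Cy5) channel of each array, with a line joining the channels of an array; the grey band reaches the highest of the per-array lowest signals that were well above background. Each panel has its own scale, so heights are not to be compared between genes; DLL1, MIB1 and HES1 fall on every array, whereas JAG1 falls steeply on arrays 1 and 2 only.

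The genes whose 4 log2 ratios lay closest to those of *dll1*, by the root mean square difference among 2430 called symbols outside the members, were *oxt*, *dlg2* and *il18*. They encode oxytocin, a scaffold protein of synapses and an inflammatory cytokine. The differences were 0.064, 0.068 and 0.069, respectively, and their mean log2 ratios were −1.13, −1.04 and −1.06.

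Jagged1, the other ligand that was measured, differed between arrays more than any other tested member. The brightest *jag1* probe named by symbol read 116, 107, 100.2 and 59.3 in the control channel and 46.8, 58.8, 115 and 65.8 in the HMB channel. Its log2 ratios were −1.31, −0.87, 0.20 and 0.15. Arrays 1 and 2 were lower with HMB, arrays 3 and 4 were slightly higher, and the channels overlapped. The mean was −0.46 ± 0.76 (SD, n = 4; limma adjusted p = 0.202), and 99.2% of the tested probes had a smaller SD. The mean was −0.17 without replicate 1 and −0.68 without replicate 3, and the gene was not called without any one replicate. The second probe, at −1.09, −0.70, 0.02 and 0.24, gave −0.38 ± 0.62 (limma adjusted p = 0.199).

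The third *jag1* probe, which shares no more than 2 bases with the others, was brighter. It read 592, 561, 545 and 387 in the control channel and 219, 251, 443 and 306 in the HMB channel. The log2 ratios were −1.44, −1.16, −0.30 and −0.34. All 4 were below 0, and arrays 1 and 2 again stood apart from arrays 3 and 4. The mean was −0.81 ± 0.58 (SD, n = 4), an FC of 1.75, and it was called lower (limma adjusted p = 0.020). The call was lost without replicate 2 (−0.69, limma adjusted p = 0.0716) and with the methods' t-test (adjusted p = 0.13). It was also lost with limma's treat, a test against the FC of 1.3 (adjusted p = 0.248), and with no filter on dim probes (limma adjusted p = 0.121). Since the probe was chosen after its values were seen, *jag1* was not counted among the called members. No marked or saturated spot lay under any of the 3 probes.

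For *jag2*, the further Jagged ligand, the probe named by description read 21.2 to 27.7 in the control channel and 15.5 to 32.8 in the HMB channel. It was well above background on 1 array in each channel and was not tested.

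Mindbomb1, which ubiquitinates Delta and Jagged ligands so that they are taken up and can signal, was lower by the same amount on every array. The *mib1* probe read 263, 236, 327 and 229 in the control channel and 188, 167, 227 and 163 in the HMB channel. The log2 ratios were −0.48, −0.50, −0.52 and −0.49. The mean was −0.50 ± 0.02 (SD, n = 4), 1.41 times lower with HMB (limma adjusted p = 0.000986, confidence interval −0.64 to −0.36). Of all tested probes, 44 had a smaller SD. The FC lies near the threshold, and the gene was not called with normexp (−0.28), with loess without background correction (−0.32) or with limma's treat, a test against the FC of 1.3 instead of 0 (adjusted p = 0.237).

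Hes1, the repressor that is the classical early target of the pathway, was lower on all 4 arrays. The *hes1* probe read 133, 112, 109 and 82.9 in the control channel and 66.0, 71.4, 78.2 and 65.0 in the HMB channel. All control values were above all HMB values, but only narrowly. The log2 ratios were −1.01, −0.65, −0.48 and −0.35, and array 1 had the largest difference. The mean was −0.62 ± 0.29 (SD, n = 4), 1.54 times lower with HMB (limma adjusted p = 0.00591, confidence interval −0.90 to −0.35). The call was lost with the methods' t-test (adjusted p = 0.063), treat (0.228), no filter on dim probes (0.0515), normexp (−0.24) and loess without background correction (−0.29).

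Hey1, a related repressor that is induced by Notch in many cell types, did not follow *hes1*. The *hey1* probe read 70.6, 64.5, 77.9 and 60.05 in the control channel and 78.3, 79.4, 93.04 and 59.5 in the HMB channel. The log2 ratios were 0.15, 0.30, 0.26 and −0.01. The mean was 0.17 ± 0.14 (SD, n = 4; limma adjusted p = 0.101), with a confidence interval of −0.01 to 0.35 that stays within an FC of 1.3, but scaled to spike-in RNA it turned to −0.31. The difference between *hes1* and *hey1* was not tested. The *heyl* probe (chr2:16781746-16781805), for the third repressor, read 8.30 to 22.1 and 15.7 to 17.3 and was at background.

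**Figure D3:**
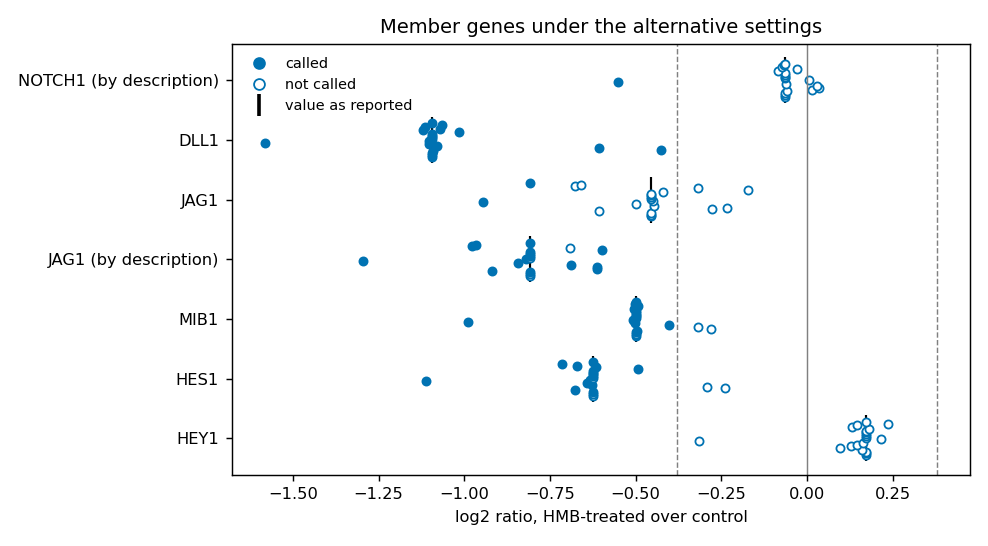
Log2 ratio of each measured member gene under the alternatives in background correction, normalization, test, filter and replicates (circles, filled where called), with the reported value as a black tick and an FC of 1.3 as dashed lines. DLL1 stays called from −1.58 to −0.43, MIB1 and HES1 move inside the dashed lines under both loess settings, and the leftmost circle in each row is the scaling to spike-in RNA.

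The rest of the pathway was described through 64 further genes in 7 lists. Of these, 51 had a probe by symbol and 38 were tested. With HMB 4 of the 38 were higher and 4 lower, that is, 30 were not called, and the median log2 ratio was −0.02. Over the brightest tested probe of each symbol, 10.5% were higher and 17.1% lower, so these counts do not set the pathway apart. Of the 8 called genes, *dtx3l*, *dlk2* and *epn2* passed the filter on dim probes only through the channel in which they were brighter, so their calls are not independent of that filter. With both channels required to be well above background on all arrays these 3 were not tested and 5 genes were called.

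Among other receptors and ligands, 2 of 6 were tested. *Dlk2*, which encodes a Delta-like protein without the domain that engages receptors, gave −0.70 ± 0.22 (SD, n = 4; limma adjusted p = 0.002), but was well above background in the HMB channel on 1 array only. The call was lost with normexp (−0.13), loess without background correction (−0.16) and treat (adjusted p = 0.061). *Notch4*, *dll4* and *dlk1* were at background in both channels on all arrays.

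Among the ubiquitin ligases and endocytic adaptors, 8 of 15 were tested, with 2 higher and 1 lower. *Dtx3l*, whose product works with PARP9 in DNA damage and interferon responses and is only by family a Deltex protein, was not well above background in the control on any array. It read 26.1, 24.0, 29.1 and 34.8 there and 214, 175, 281 and 144 in the HMB channel. With the deposited background subtraction the mean log2 ratio was 2.80 (limma adjusted p = 0.000127, confidence interval 2.34 to 3.27), and array 4 gave 2.05. The mean equals a 6.99-fold higher signal with HMB. It sets the HMB signal against control readings at background, so it is an estimate and not a lower bound. This size holds for that background subtraction only. The log2 ratio of 2.80 became 0.91 with normexp, 1.304 with loess without background correction and 2.32 with scaling to spike-in RNA. It was called each time, but the probe passed the filter through the HMB channel only, so these calls are not independent of that filter. With both channels required to be well above background it was not tested. *Dtx3*, a Deltex family ligase, was called higher at 0.46 ± 0.28 (adjusted p = 0.0166), but not without replicate 2 (0.43, adjusted p = 0.0583) or without replicate 3 (0.35). Its call was also lost with the methods' t-test (adjusted p = 0.0985), treat (1), no filter on dim probes (0.0886), normexp (0.24) and loess without background correction (0.33). The epsin gene *epn2* gave −0.51 ± 0.14 (SD, n = 4; limma adjusted p = 0.00266), with the HMB channel well above background on 3 arrays. It was not called with normexp (−0.13), loess without background correction (−0.16) or treat (adjusted p = 0.375).

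Of the enzymes that glycosylate the receptor, 4 of 6 were tested. *Poglut1*, which adds glucose to the EGF repeats, was called higher at 0.55 ± 0.08 (limma adjusted p = 0.000992), while its second probe gave 0.18 ± 0.11 (adjusted p = 0.0727). The mean of both probes, 0.37, was not called. The call of the brighter probe was lost with normexp (0.36), treat (adjusted p = 0.121) and scaling to spike-in RNA (0.06, adjusted p = 0.426).

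Of the proteases that cut the receptor, 7 of 9 were tested and 1 was called by its brightest probe. The dimmer probe of *aph1b*, singled out after its values were seen, was called higher at 0.40 (limma adjusted p = 0.0165), while its brightest probe gave −0.06 and was not called. *Psen2*, encoding a catalytic subunit of γ-secretase, read 2086, 1946, 2211 and 1766 in the control channel and 1077, 1037, 1289 and 898 in the HMB channel. The channels did not overlap. The log2 ratio was −0.90 ± 0.09 (SD, n = 4), 1.87 times lower with HMB (limma adjusted p = 0.000153), and was called under all 20 alternatives.

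None of the 6 tested genes of 9 in the list of RBPJ, Mastermind and coactivators was called. Their log2 ratios ran from −0.16 to 0.24. *Rbpj* itself, singled out after its values were seen, gave 0.24 ± 0.08 (limma adjusted p = 0.023), an FC of 1.18 that misses the threshold, and −0.12 at its second probe.

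Of the corepressors, 9 of 12 were tested and 1 was called. *Hdac2*, a histone deacetylase that acts at many genes outside the pathway, was lower at −0.74 ± 0.12 (limma adjusted p = 0.000466), also under all 20 alternatives.

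Among other HES and HEY genes, 2 of 7 were tested. *Hey2*, a repressor closely related to *hey1*, was called higher. Its brightest probe read 342, 443, 388 and 360.0 in the control channel and 496, 642, 663 and 505 in the HMB channel, without overlap. With a mean log2 ratio of 0.58 ± 0.13 (SD, n = 4), its limma adjusted p was 0.00132. The 5 *hey2* probes at chr10:67449994-67450057 overlap almost wholly, gave means of 0.58 to 0.74 and were all called. The gene was not called when scaled to spike-in RNA (0.09, adjusted p = 0.388) or with treat (adjusted p = 0.106). *Hes7* gave 0.17 ± 0.14 (adjusted p = 0.114).

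**Figure D4:**
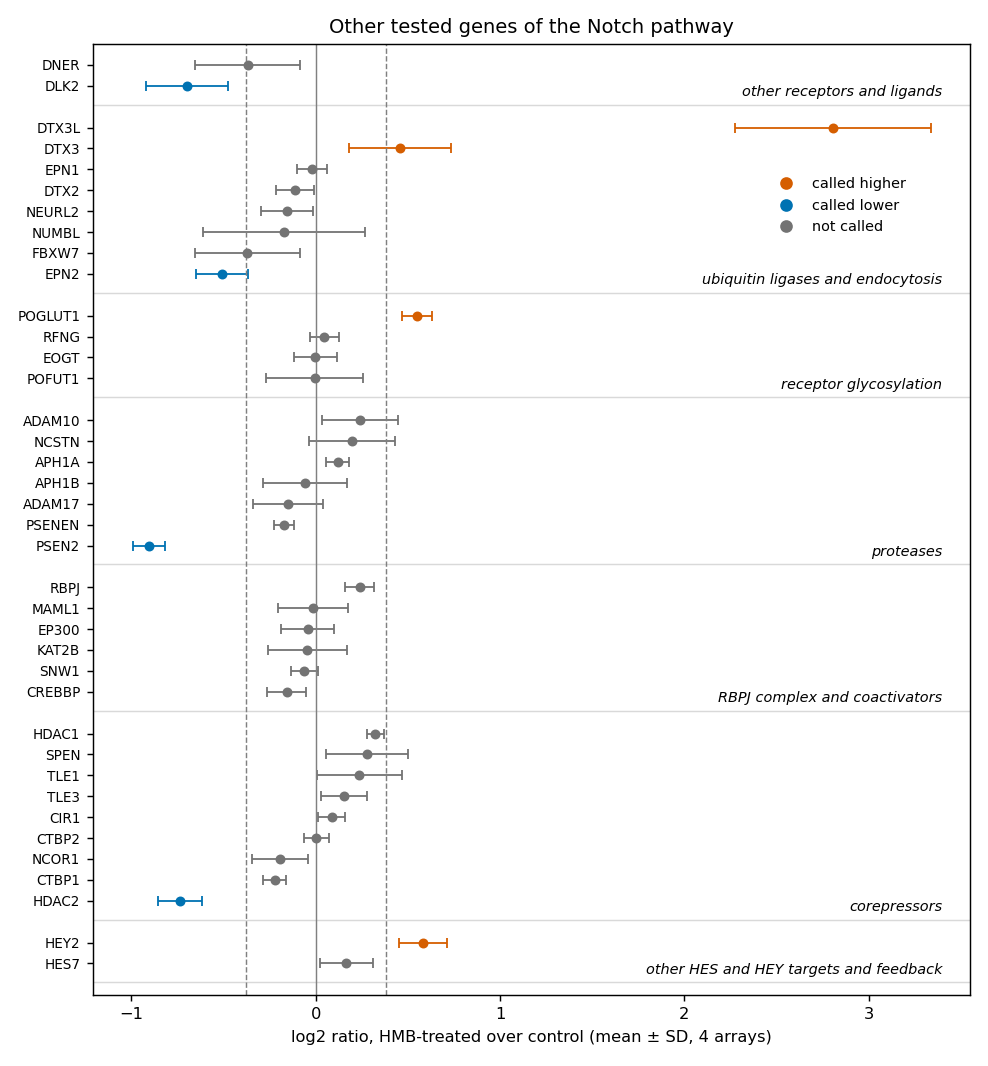
Mean log2 ratio of HMB-treated over control with SD over the 4 arrays for the 38 tested pathway genes outside the members, grouped by their role, each by its brightest tested probe; dashed lines mark an FC of 1.3. Most genes lie between the dashed lines, 4 are called higher and 4 lower, and DTX3L at 2.80, a value whose control channel is at background, lies far from the rest.

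Some markers of cell types also differed with HMB. Over the brightest tested probe of each symbol, 27.6% were called, 10.5% higher and 17.1% lower. Of 8 myogenic markers 6 were tested and 4 were lower (*acta1*, *des*, *myf5* and *myh3*), with a median of −1.16, while *myod1* (0.32) and *myog* (0.03) were not called. The summed signal of the 6 ran from 161200 to 181400 over the control channels and from 60850 to 96900 over the HMB channels. Of 6 fibroblast markers 5 were tested and 4 were higher, from *pdgfra* at 1.49 to *lum* at 0.42. The control signal of *pdgfra*, 28.4 to 36.3, was near the lowest signals well above background, so the size of its ratio is uncertain. The summed signal of the 5 ran from 194200 to 222800 over the control channels and from 223300 to 339800 over the HMB channels. Most of this sum was *col3a1* (129669 to 158708 in the control channel), which was not called at its brightest probe (0.06). Its dimmer probes gave 0.24 to 0.42, and those at 0.387, 0.419 and 0.395, which overlap almost wholly, were called higher. All 5 endothelial markers were at background. Of 5 immune markers 2 were tested and *cd68* was higher (0.88), with sums of 3652 to 4392 and 4126 to 6169. Nearly all of this sum was *cd14* (3593 to 4315 in the control channel), which was not called (0.20). Of 4 mural markers 2 were tested and none was called, with sums of 166 to 286 and 199.9 to 259. In bulk RNA, fewer cells of a type and less RNA per cell cannot be told apart, and the part of the markers' shift in the Notch results was not tested.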

How the data were processed

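HMB-treated (Cy5) and control (Cy3) RNA of ESC were compared on 4 two-colour Agilent horse arrays with 45220 spots each, and each array was 1 replicate. The authors deposited Feature Extraction output (version 10.10.1.1 per the file headers), in which intensity values are the brightness of each spot, with background subtracted and dyes normalized by a linear and a lowess step. The deposited log10 values are ratios of Cy5 over Cy3 signal, and a further deposited table repeats them to within 3.96e-05. They were converted to log2 here. The log2 values therefore rest on the authors' normalization, in which dim signals are replaced by surrogates that compress ratios.

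In R 4.3.3 with limma 3.58.1, controls and any spot with a non-uniformity or outlier mark (13 to 35 per array) were left out and spots of 1 probe averaged. Well above background were 57.6 to 60.6% of spots in Cy3 and 55.2 to 61.8% in Cy5. Probes well above background in the same channel on all 4 arrays with a ratio on at least 3 were tested against 0 by limma's intercept model with empirical Bayes moderation and the Benjamini-Hochberg correction over all 24673 probes. This called 7048 probes. A gene is given by its brightest tested probe.

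The members, the gene lists and the tests were chosen with earlier results of these data known. Named are all members, the called genes of the other lists with the same sign on all 4 arrays, genes whose probes were called in both directions, and the 3 genes most like the member with the largest ratio. On simulated data with 200 of 24673 probes changed, 164 were recovered (82%) with 12 false calls. The simulated noise was independent between probes and arrays, and far fewer probes were changed than were called in the data. These rates may therefore not hold for these arrays. Alternatives covered the test, moderation, array weights, background correction, normalization, scaling, probe GC content, the filter, marked spots, the authors' table, the probes per gene and each replicate left out. Probes named by description were added as an alternative after the data had been seen. Probe sequences are those of the deposited files. A few items are not reported here. Promoter and protein sequences, and miRNA, RT-qPCR and protein data of the study, were not used here.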

Additional observations from a re-analysis of the deposited data

Results flagged for a closer look

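The log2 ratio of *hey2*, a HEY repressor that was called higher with HMB, had 1 array far from the others. Array 3 gave 0.77, whereas the other 3 arrays gave 0.54, 0.53 and 0.49, so that the gap took up 0.8294 of the whole range, just above the limit used for 4 samples. Among the 20 tested probes examined in this way it was the only one, and chance marks about 1 in 20 such groups. Without replicate 3, *hey2* was still called at 0.52. The other 4 *hey2* probes, which overlap it, gave 0.73 to 0.77 on array 3 and 0.70 to 0.92 on array 2, so array 3 did not stand apart on them.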

How the results depend on the processing

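The number of called member genes was 3 in the fit reported. It fell to 1, *dll1*, with limma's treat, with normexp and loess, and with loess without background correction. It became 2 with the methods' t-test and with no filter on dim probes, and 4 with scaling to spike-in RNA and with description-named probes added. The number of called member probes, 7, became 4 with normexp, 5 with treat and with loess without background correction, and 9 with scaling to spike-in RNA. It became 6 with the methods' t-test and with no filter on dim probes, and 8 with description-named probes added. The number of called genes in the rest of the pathway, 8, became 3 with treat, 4 with normexp, 5 where both channels had to be well above background, and 26 with scaling to spike-in RNA (1 higher, 25 lower). Under the other settings it was 6 to 10. Over all tested probes, 7048 calls became 2822 with treat, 3539 with normexp, 4440 with loess without background correction and 18572 with scaling to spike-in RNA. The share of calls that were higher, 42.5%, became 54.6%, 55%, 60.1% and 6.71% under these settings in that order, and 57.7% with median centering without lowess. Leaving out each replicate gave 3 member genes, 7 member probes, 7 to 9 other pathway genes and 6638 to 7152 probes. Directions turned for *hey1* (−0.31) and *dtx3* (−0.030) with spike-in scaling, and for *notch1*, which was near 0, with normexp (0.014), loess without background correction (0.035), median centering (0.029) and the GC correction (0.0054). Spike-in scaling also called *jag1* by symbol (−0.94). The causes were not tested. Signals near background limit *notch2*, *notch3*, *jag2* and *heyl*, for which no fold can be given. The ratios within arrays already pair the groups, so no further fit with a replicate block was made.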
